A study of Mus musculus with 12 samples.

Results

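The enzymes that attach glutathione, glucuronic acid or sulfate to drugs, lipids and hormones were examined across the 4 groups of an RNA sequencing experiment on primary mouse hepatocytes. Members were defined by gene symbol, a rule set with earlier results of these data known. The rule covered glutathione S-transferases (Gst classes a, k, m, o, p, s, t and z, with the microsomal Mgst genes). It also covered UDP-glucuronosyltransferases (Ugt1a, Ugt2a, Ugt2b and Ugt3a) and sulfotransferases (Sult). This gave 67 of the 22471 features, made up of 25 Gst and Mgst genes, 21 Ugt genes and 21 Sult genes. All 67 identifiers were found in GENCODE release M21 for the mouse assembly GRCm38, which gives the coordinates below. Of these genes, 46 passed the filter on low counts in at least 1 comparison, namely 22 Gst, 17 Ugt and 7 Sult genes, and Ugt1a2 did so only in ConOA vs Con and in the fit of all 12 libraries. The other 21 were not tested, and 11 of those had no count in any library.

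The cells were hepatocytes isolated by collagenase perfusion from young male C57BL/6J mice, per the study's methods, while the sample labels name only liver as the source. The groups were Con (untreated control), ConOA (oleic acid, given to fill the cells with lipid), BBR (benzbromarone, a uric acid-lowering drug) and BBROA (both agents), with 3 libraries each. Neither agent's dose nor the treatment time is in the sample labels. Whether the 3 libraries of a group stem from different mice or from wells of a single preparation is not given in the sources used here, so p-values measure the spread between these libraries, which may be technical.

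Conjugation is the step by which the liver makes foreign and endogenous compounds water-soluble. Glutathione S-transferases add the tripeptide glutathione to reactive electrophiles, glucuronosyltransferases transfer glucuronic acid from UDP-glucuronate in the endoplasmic reticulum, and cytosolic sulfotransferases use the sulfate donor PAPS. The products leave the cell through ABC transporters, and several of these enzymes can be induced in liver through the pregnane X receptor and the factor NRF2.

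Total counts per library lay between 15485508 and 23668379, and the 67 genes took 0.264% to 0.406% of them. Levels are given as CPM, each library's counts scaled by its TMM-adjusted depth, and group values as mean ± SD over 3 libraries. A gene without any count could still stand at up to 3 counts, which equals 0.127 to 0.194 CPM and covers counting error only. The summed hepatocyte markers, all 10 detected and mostly Alb by level, measured 42801 to 43795 CPM in Con, 46541 to 48448 in ConOA, 42585 to 44075 in BBR and 48541 to 50523 in BBROA, but single markers moved apart from the sum. At an adjusted p under 0.05, 6 of the 10 were lower and 2 higher in BBR vs Con. This compares with 14.5% lower and 13.2% higher of all tested genes. In ConOA vs Con 1 was lower and 6 higher, against 21.5% and 21.3% of all genes. In BBROA vs BBR 1 was lower and 5 higher, against 18.8% and 20.1%. Cps1, the first enzyme of the urea cycle, measured 17.9 ± 1.49 CPM in Con, 177 ± 20.2 in ConOA, 9.70 ± 2.17 in BBR and 193 ± 12.4 in BBROA. The summed cholangiocyte list spanned 589.8 to 722 CPM in Con, 242 to 272 in ConOA, 391 to 421 in BBR and 199 to 240.2 in BBROA. Most of that sum was Spp1, the osteopontin gene, which fell, whereas Krt19, Epcam and Sox9 rose in BBR vs Con (log2 fold changes 0.68, 0.92 and 0.61), Sox9 also rose in ConOA vs Con (0.60), and Krt7 and Cftr lay below 1 CPM. The Kupffer list spanned 101 to 119 CPM in Con, 109 to 123 in ConOA, 141 to 183 in BBR and 116 to 123 in BBROA, carried by Cd68. Of its 10 markers, 1 was higher (Cd68) and 1 lower (Cd5l) in BBR vs Con, while in ConOA vs Con 3 were higher (Marco, Lyz2 and Adgre1) and 6 lower, the defining Clec4f and Vsig4 among them. The endothelial list spanned 53.2 to 56.04 CPM in Con, 48.6 to 62.1 in ConOA, 60.5 to 65.1 in BBR and 59.1 to 60.1 in BBROA, with 3 of 7 markers higher in BBR vs Con (Pecam1, Cdh5 and Kdr). The stellate list spanned 21.6 to 28.6 CPM over all libraries. In BBROA vs BBR, 3 Kupffer markers were higher and 3 lower, and 2 endothelial markers were higher and 3 lower. Of the cholangiocyte markers, 0 were higher and 2 lower there. The part of these marker shifts in the results below was not tested, and in bulk samples fewer cells of a type and less RNA per cell cannot be told apart.

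The promoters of 3 cytosolic sulfotransferases are shown first, because Sult1a1, Sult1d1 and Sult1e1 were the 3 members that rose with OA while most others fell. They are RefSeq sequences on GRCm38.p6, read from the minus strand, and only bases outside the annotated gene are printed. Capitals mark GCGTG, the core of the xenobiotic response element, which reads CACGC on the printed strand of Sult1d1.
Sult1a1, chr7:126676433-126676668, minus strand: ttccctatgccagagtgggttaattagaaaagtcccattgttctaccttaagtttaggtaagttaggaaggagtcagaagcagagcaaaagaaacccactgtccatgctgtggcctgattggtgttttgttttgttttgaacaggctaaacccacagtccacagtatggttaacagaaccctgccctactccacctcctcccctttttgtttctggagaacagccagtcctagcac
Sult1d1, chr5:87569028-87569256, minus strand: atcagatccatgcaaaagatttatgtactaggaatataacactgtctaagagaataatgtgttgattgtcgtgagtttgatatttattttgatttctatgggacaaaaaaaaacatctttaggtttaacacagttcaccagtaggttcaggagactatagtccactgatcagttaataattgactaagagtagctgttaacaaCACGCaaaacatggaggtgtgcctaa
Sult1e1, chr5:87591612-87591861, minus strand: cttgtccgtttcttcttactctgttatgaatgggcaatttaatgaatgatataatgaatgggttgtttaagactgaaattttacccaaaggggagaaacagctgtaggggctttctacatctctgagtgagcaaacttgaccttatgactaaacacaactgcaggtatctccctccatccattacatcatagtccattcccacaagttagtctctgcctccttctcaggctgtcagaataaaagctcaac

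GCGTG lay 47 bases upstream of the RefSeq start in Sult1d1. Sult1a1 and Sult1e1 held neither of the motifs searched on both strands of the 250 upstream bases, GCGTG and TGACNNNGC. Over 32851 promoters of that length, GCGTG occurred in 28.2% and TGACNNNGC, the antioxidant response element core bound by NRF2, in 10.2%. RefSeq promoters were found for 59 of the 67 members, with 71 promoters in all, of which 16.9% held GCGTG and 5.63% held TGACNNNGC. Among tested members, TGACNNNGC was found in Gsta3, Gstm5, Gstm7 and Mgst1. GCGTG was found in Gsta2, Gstm1, Gstm5, Gstp1, Gstp3, Mgst3, Sult1b1, Sult1d1 and Ugt1a5. Of these GCGTG holders, only Sult1d1 rose in ConOA vs Con, while Gsta2, Gstm1, Gstp1 and Mgst3 fell. A match is a description of letters, not of a bound site.

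The first comparison asked what OA did in the absence of the drug. In ConOA vs Con, 29 of 46 tested members were lower and 3 were higher, against 21.5% lower and 21.3% higher of the 12418 genes tested. The median log2 fold change (log2FC) was -0.34 over the members and -0.0060 over all genes. Falls were found in 16 of 22 Gst genes, 11 of 17 Ugt genes and 2 of 7 Sult genes, whereas the 3 rises were all sulfotransferases. Of the 32 changed members, 16 changed at least 1.5-fold, a count for which no share over all genes is given. The plot of log2 fold changes gives every tested member in the 4 comparisons.

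**Figure D1:**
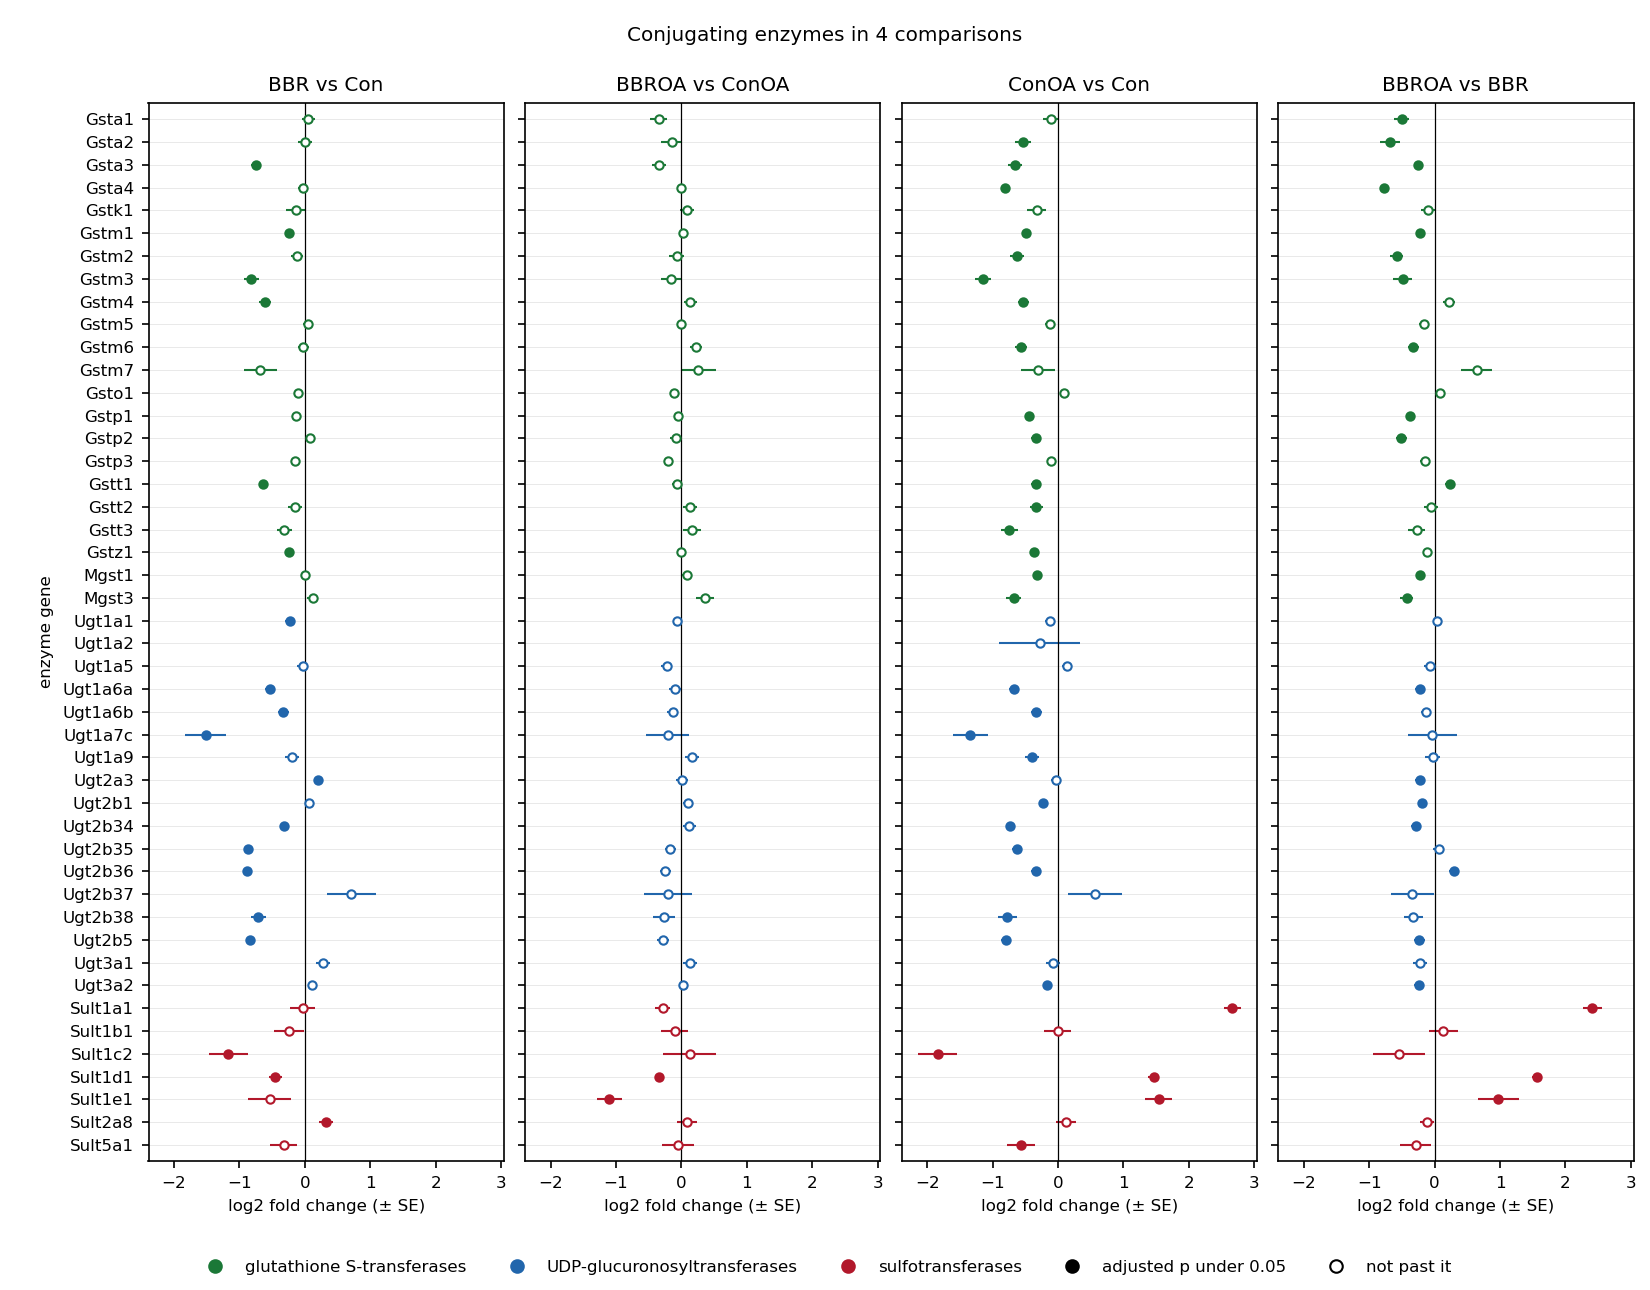
Log2 fold change (x axis, ± SE) of each tested conjugating enzyme gene (rows) in 4 comparisons (panels), with Gst genes in green, Ugt genes in blue and Sult genes in red, and filled points for an adjusted p under 0.05. Filled points lie mainly left of 0 in the OA panels, apart from Sult1a1, Sult1d1 and Sult1e1 in both, with Sult1a1 at 2.66 in ConOA vs Con, and Gstt1 and Ugt2b36 in BBROA vs BBR, and only Sult1d1 and Sult1e1 are filled in BBROA vs ConOA.

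The rises were in Sult1a1, Sult1d1 and Sult1e1. Sult1a1 (ENSMUSG00000030711, chromosome 7, 126672865 to 126676432, minus strand) is the main phenol sulfotransferase. It measured 4.11, 3.29 and 3.24 CPM in the Con libraries and 25.7, 19.3 and 21.96 CPM in ConOA. Every ConOA library stood well above every Con library, and the means were 3.55 ± 0.489 and 22.3 ± 3.23 CPM (log2FC 2.66, standard error 0.13, adjusted p = 2.83e-09). It ranked 33 of 12418 genes by rise. An exon of Sult1a1 overlaps Sgf29, which measured 11.7 ± 1.25 CPM in Con and 12.01 ± 0.192 in ConOA (log2FC 0.049, adjusted p = 0.709).

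Sult1d1 (ENSMUSG00000029273, chromosome 5, 87554645 to 87569027, minus strand) conjugates catecholamines. Its Con libraries measured 11.9, 11.9 and 13.8 CPM and its ConOA libraries 36.1, 35.8 and 31.6 CPM, with a wide gap between the groups (log2FC 1.46, standard error 0.083, adjusted p = 1.19e-08). The oestrogen sulfotransferase Sult1e1 (ENSMUSG00000029272, chromosome 5, 87575969 to 87591594, minus strand), its neighbour, measured 1.61, 1.72 and 1.14 CPM in Con and 3.90, 4.004 and 4.90 CPM in ConOA. These values rest on 27 to 36 counts per Con library and 69 to 96 per ConOA library, and the groups did not overlap (log2FC 1.54, standard error 0.21, adjusted p = 3.41e-05). Sult1b1, a thyroid hormone sulfotransferase next to Sult1d1 on the same strand, measured 2.08 ± 0.372 and 2.07 ± 0.115 CPM and did not pass the test, with a 95% interval of the log2FC of -0.42 to 0.41.

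Sult1c2 (ENSMUSG00000023122, chromosome 17, 53829637 to 53846339, minus strand), another sulfotransferase of phenols, went the other way. It measured 2.51, 2.34 and 1.81 CPM in Con and 0.396, 0.541 and 0.868 CPM in ConOA, on 43 to 50 counts against 7 to 17 per library. No ConOA library reached the lowest Con library, and the fall was the largest among the tested members (log2FC -1.84, standard error 0.30, adjusted p = 0.000217). Sult5a1 also fell, from 2.28 ± 0.218 to 1.53 ± 0.152 CPM (log2FC -0.57, standard error 0.21, adjusted p = 0.0438). Its call was lost in 8 of 13 alternative analyses.

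**Figure D2:**
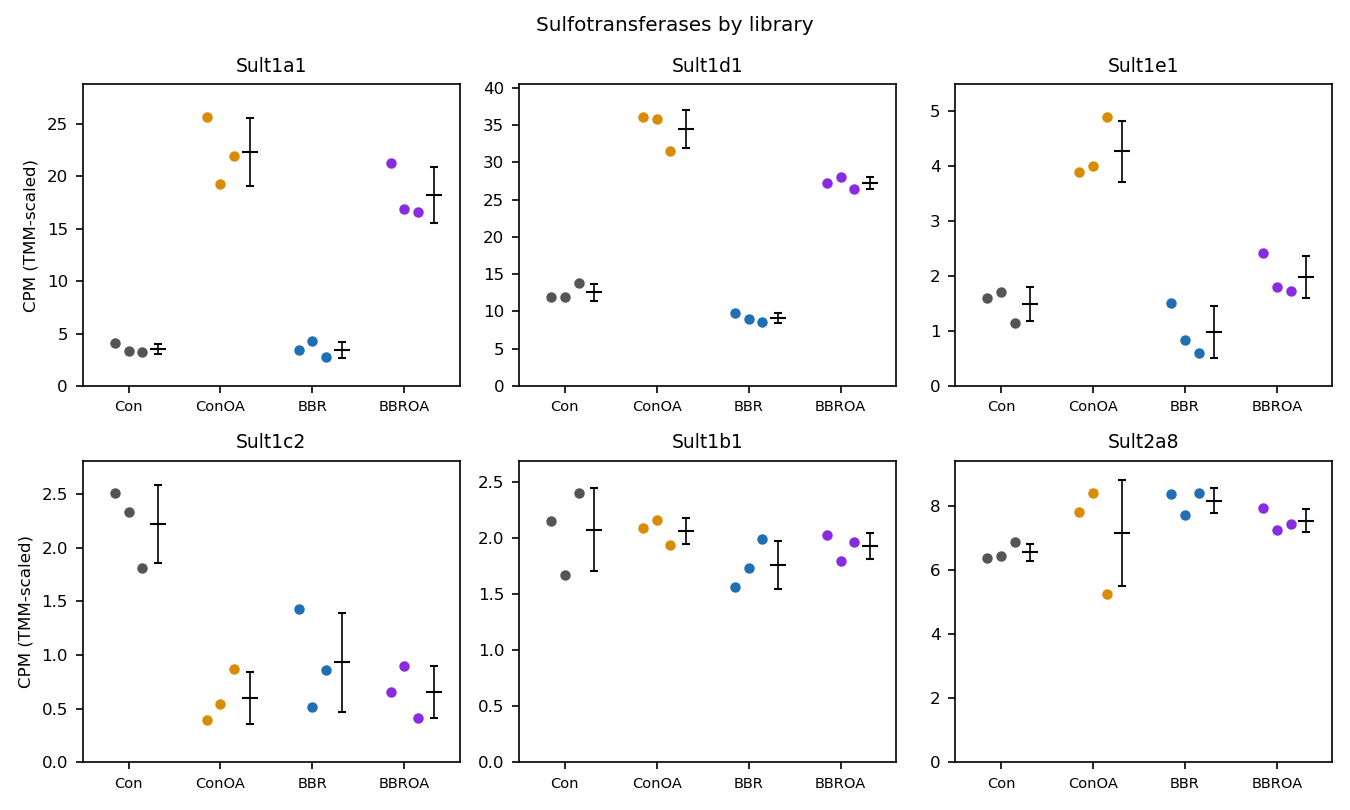
CPM (y axis, TMM-scaled, from 0) of 6 sulfotransferase genes in each library of the 4 groups (x axis), with coloured points for libraries and black bars for the group mean ± SD over 3 libraries. Sult1a1 and Sult1d1 are high in both OA groups. Sult1e1 is highest in ConOA (mean 4.27 CPM), with means of 1.98 in BBROA and 1.49 in Con. Sult1c2 is highest in Con (mean 2.22 CPM), and Sult1b1 has similar means in all groups.

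Among the glutathione S-transferases, Gstm3 (ENSMUSG00000004038, chromosome 3, 107963696 to 107969283, minus strand), a mu-class enzyme, fell most with OA. Its libraries measured 13.2, 15.8 and 17.1 CPM in Con and 5.997, 6.93 and 7.81 CPM in ConOA, without overlap (log2FC -1.15, standard error 0.12, adjusted p = 3.74e-06). Gsta4 (ENSMUSG00000032348, chromosome 9, 78182774 to 78209349, plus strand), which detoxifies the lipid peroxidation product 4-hydroxynonenal, measured 50.1, 61.4 and 55.6 CPM in Con and 30.04, 31.98 and 33.1 CPM in ConOA. The groups were clearly apart (log2FC -0.80, standard error 0.074, adjusted p = 1.05e-06). The theta-class gene Gstt3 fell from 9.39 ± 1.10 to 5.54 ± 0.589 CPM (log2FC -0.75, adjusted p = 0.000317). Gsta2 and Gstm2, alpha- and mu-class enzymes, had log2FC of -0.53 and -0.63 (adjusted p = 0.00275 and 0.000442). Of the 50-base words in the transcripts of Gstm3 and Gsta2, 28.8% and 49.8% also occur in another gene. The counts of Gstm3 and Gsta2 may therefore include reads of relatives. Mgst3, a microsomal enzyme with peroxidase activity, fell from 16.2 ± 1.28 to 10.03 ± 1.92 CPM (log2FC -0.68, adjusted p = 0.000337).

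The 4 most abundant members of this class, compared per transcript length by deposited FPKM averaged over the 12 libraries, were Gstp1 (1186), Mgst1 (745), Gstm1 (293) and Gsta1 (193). Gstp1, a pi-class enzyme abundant in male mouse liver, measured 1002, 1116 and 1099 CPM in Con and 740.2, 771 and 839 CPM in ConOA. All ConOA libraries were below all Con libraries (log2FC -0.45, standard error 0.06, adjusted p = 3.72e-05). Gstp1 shares 33.7% of the 50-base words of its transcripts with Gstp2, so the counts of this pair cannot be fully separated. Mgst1, a microsomal enzyme that also reduces lipid peroxides, fell from 655 ± 47.2 to 524 ± 50.9 CPM (log2FC -0.32, standard error 0.07, adjusted p = 0.00228). The fall of Gstm1, the most abundant mu-class gene, was from 457 ± 22.8 to 323 ± 14.9 CPM (log2FC -0.49, standard error 0.054, adjusted p = 5.61e-06). Another gene also holds 18.9% of the 50-base words of Gstm1. Gsta1 did not pass the test, at 183 ± 27.5 and 169 ± 33.3 CPM with a log2FC interval of -0.34 to 0.13. Of the 50-base words in its transcripts, 90.5% also occur in another gene, mostly Gm3776, so its counts may include reads of relatives.

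The glucuronosyltransferases fell with OA mainly in the Ugt2b and Ugt1a subfamilies, in 6 of 7 and 4 of 7 tested genes. Ugt2b enzymes conjugate steroids and bile acids. Ugt2b34 (ENSMUSG00000029260, chromosome 5, 86889767 to 86906937, minus strand), the most abundant member of the class at 68.4 FPKM over the 12 libraries, measured 253, 279 and 290.02 CPM in Con and 144, 171 and 179 CPM in ConOA. The ranges were far apart (log2FC -0.73, standard error 0.073, adjusted p = 2.43e-06). Ugt2b5 and Ugt2b38 fell as well, with log2FC of -0.79 (adjusted p = 2.32e-06) and -0.77 (adjusted p = 0.000536). Of the 50-base words of Ugt2b5, 34.8% also occur in Ugt2b38, so the counts of these genes cannot be fully separated.

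Ugt1a7c, a member of the Ugt1a locus on chromosome 1, measured 1.86, 1.67 and 2.36 CPM in Con and 0.679, 0.703 and 0.919 CPM in ConOA (log2FC -1.34, standard error 0.27, adjusted p = 0.00115). Each ConOA library was below each Con library, at 11.9 to 18.02 estimated counts against 35.3 to 55.9. Ugt1a6a, which conjugates simple phenols, fell from 32.5 ± 1.05 to 20.3 ± 1.81 CPM (log2FC -0.67, adjusted p = 6.77e-06). The bilirubin-conjugating enzyme Ugt1a1 did not pass the test, at 80.4 ± 7.21 and 73.1 ± 4.44 CPM with a log2FC interval of -0.26 to 0.00044. The Ugt1a genes share their 3′ exons, and 52.1% to 79.8% of the 50-base words of each occur in another gene, so how reads were divided among them is uncertain.

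The same question was asked in cells that also received the drug. In BBROA vs BBR, 18 of 45 tested members were lower and 5 higher, against 18.8% lower and 20.1% higher of 12416 genes, with a median log2FC of -0.22 over the members and -0.0061 over all genes. This comparison shares no library with ConOA vs Con. Of the 29 members that fell with OA alone, 16 also fell here (55.2% of 29 and 88.9% of 18). The like overlap over all genes was not computed, so whether this is particular to the members is not known. The 16 members were Gsta2, Gsta3, Gsta4, Gstm1, Gstm2, Gstm3, Gstm6, Gstp1, Gstp2, Mgst1, Mgst3, Ugt1a6a, Ugt2b1, Ugt2b34, Ugt2b5 and Ugt3a2. In BBROA vs BBR the calls of Gsta3, Gstm3, Ugt1a6a, Ugt2b1, Ugt2b34, Ugt2b5 and Ugt3a2 were lost under at least 1 alternative analysis, as were those of Ugt2b1 and Ugt3a2 in ConOA vs Con. The rises of Sult1a1, Sult1d1 and Sult1e1 were found in both comparisons.

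Sult1a1 measured 3.40, 4.25 and 2.74 CPM in BBR and 21.3, 16.9 and 16.6 CPM in BBROA. Sult1d1 measured 9.85, 8.95 and 8.61 CPM in BBR and 27.2, 28.1 and 26.4 CPM in BBROA. For both genes the libraries with OA stood far above those without, with log2FC 2.41, standard error 0.15, adjusted p = 2.15e-08 for Sult1a1 and log2FC 1.57, standard error 0.079, adjusted p = 2.95e-09 for Sult1d1. Sult1e1 measured 1.52, 0.837 and 0.592 CPM in BBR and 2.43, 1.80 and 1.73 CPM in BBROA. Its lowest BBROA library lay just above its highest BBR library (log2FC 0.98, standard error 0.32, adjusted p = 0.0255). That call was lost without BBR replicate 2, without BBR replicate 3 or without BBROA replicate 1, with adjusted p-values up to 0.107. Sult1c2, at 0.934 ± 0.460 and 0.658 ± 0.241 CPM, did not pass the test in drug-treated cells (log2FC interval -1.32 to 0.24).

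Gsta4 fell with OA in drug-treated cells too, from 52.5, 56.1 and 53.9 CPM in BBR to 30.001, 33.9 and 31.1 CPM in BBROA. Each BBROA library lay far below each BBR library (log2FC -0.77, standard error 0.059, adjusted p = 1.85e-07). Among further falls, the log2FC was -0.68 for Gsta2, -0.58 for Gstm2, -0.51 for the pi-class gene Gstp2, -0.50 for Gsta1, -0.49 for Gstm3, -0.43 for Mgst3 and -0.37 for Gstp1, with adjusted p-values between 3.77e-05 and 0.0181. Gsta1, whose counts may hold reads of relatives, measured 159, 221 and 188 CPM in BBR and 106, 154 and 139.9 CPM in BBROA, so that the groups lay close but did not overlap. The call of Gstm3 was lost without BBR replicate 3 or without BBROA replicate 1.

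Gstt1 and Ugt2b36 rose with OA in drug-treated cells although each fell with OA alone. Gstt1 (ENSMUSG00000001663, chromosome 10, 75783813 to 75798584, minus strand), a theta-class enzyme that conjugates small halogenated compounds, measured 49.1, 53.1 and 50.7 CPM in Con and 36.2, 40.2 and 43.8 CPM in ConOA (log2FC -0.34, standard error 0.069, adjusted p = 0.00119), but 35.2, 29.2 and 33.03 CPM in BBR and 36.3, 40.2 and 38.4 CPM in BBROA. The lowest BBROA library was just above the highest BBR library (log2FC 0.23, standard error 0.07, adjusted p = 0.0192), and the call was lost without BBR replicate 2 or without BBROA replicate 2. Ugt2b36 (ENSMUSG00000070704, chromosome 5, 87065927 to 87092555, minus strand) measured 76.6, 89.9 and 86.7 CPM in Con and 59.2, 65.8 and 73.5 CPM in ConOA (log2FC -0.34, standard error 0.076, adjusted p = 0.00218), and 42.4, 45.4 and 49.3 CPM in BBR and 50.04, 56.9 and 61.4 CPM in BBROA. The BBR and BBROA libraries adjoined without overlap (log2FC 0.29, standard error 0.074, adjusted p = 0.00598).

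The drug was compared with control to describe its effect without added OA. In BBR vs Con, 17 of 45 tested members were lower and 2 higher, against 14.5% lower and 13.2% higher of 12555 genes. The median log2FC was -0.20 over the members and -0.00085 over all genes. The falls comprised 6 of 22 Gst, 9 of 16 Ugt and 2 of 7 Sult genes. At least a 1.5-fold change was found in 10 of the 19 changed members, again without a share over all genes.

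Within the Ugt2b subfamily 5 of 7 tested genes were lower with the drug. Ugt2b36, whose libraries are given above, had no BBR library near its Con libraries (log2FC -0.88, standard error 0.066, adjusted p = 1.07e-07). Ugt2b35 measured 113, 128 and 132 CPM in Con and 75.3, 63.3 and 64.9 CPM in BBR. Ugt2b5 measured 75.8, 79.8 and 86.9 CPM in Con and 48.1, 42.3 and 44.3 CPM in BBR. In both genes the highest BBR library was far below the lowest Con library, with log2FC -0.86, standard error 0.068, adjusted p = 1.50e-07 for Ugt2b35 and log2FC -0.84, standard error 0.062, adjusted p = 9.67e-08 for Ugt2b5. Ugt2b38 fell from 10.7 ± 0.448 to 6.56 ± 0.807 CPM (log2FC -0.71, standard error 0.11, adjusted p = 0.000178). The fall of Ugt2b34 was smaller, from 274 ± 18.9 to 218 ± 6.26 CPM (log2FC -0.32, standard error 0.052, adjusted p = 0.000227).

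Ugt2b1 (ENSMUSG00000035836, chromosome 5, 86916638 to 86926530, minus strand), which lies between Ugt2b34 and Ugt2b35, measured 45.3, 43.5 and 42.7 CPM in Con and 48.5, 45.2 and 43.2 CPM in BBR. The groups overlapped and the gene did not pass the test (log2FC 0.069, 95% interval -0.046 to 0.18). Its transcripts share no 50-base word with another gene, and those of Ugt2b34, Ugt2b35 and Ugt2b36 share 0.29% to 1.44%. Ugt2a3, a bile acid-conjugating enzyme of the same cluster, rose from 24.7, 26.2 and 26.1 CPM in Con to 29.8, 30.7 and 28.03 CPM in BBR, without overlap (log2FC 0.21, standard error 0.065, adjusted p = 0.0262). That call was lost in 5 of 13 alternative analyses.

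In the Ugt1a locus, Ugt1a7c fell to 0.736, 0.966 and 0.377 CPM in BBR, all below its Con libraries (log2FC -1.52, standard error 0.31, adjusted p = 0.00167), and ranked 27 of 12555 genes by fall. Ugt1a6a fell to 22.3 ± 1.03 CPM (log2FC -0.54, standard error 0.066, adjusted p = 1.43e-05). Ugt1a1 fell from 73.2, 87.6 and 80.3 CPM in Con to 62.4, 67.4 and 74.6 CPM in BBR (log2FC -0.23, standard error 0.069, adjusted p = 0.0186). It was the only called member in the 4 comparisons whose groups overlapped, since the highest BBR library exceeded the lowest Con library. The call was lost without Con replicate 2, without BBR replicate 1 or without BBR replicate 2.

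Gsta3 (ENSMUSG00000025934, chromosome 1, 21240589 to 21265661, plus strand), which protects mouse liver from aflatoxin, fell from 88.5, 101 and 113 CPM in Con to 58.6, 59.7 and 60.6 CPM in BBR. The BBR libraries were tightly grouped well below Con (log2FC -0.75, standard error 0.069, adjusted p = 8.40e-07). Gstm3 fell to 8.37, 7.72 and 9.95 CPM, all below Con (log2FC -0.82, standard error 0.11, adjusted p = 5.16e-05). Gstt1 was also lower (log2FC -0.64, standard error 0.066, adjusted p = 3.03e-06), as was the mu-class gene Gstm4 (log2FC -0.61, standard error 0.088, adjusted p = 7.11e-05). The abundant Gstp1, Mgst1 and Gsta1 did not pass the test, with log2FC intervals of -0.23 to -0.026, -0.11 to 0.10 and -0.15 to 0.25. Gsta4 was also not called (log2FC -0.035, interval -0.16 to 0.093).

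Among the sulfotransferases, Sult1c2 was lower with the drug at 1.43, 0.515 and 0.861 CPM, all below its Con libraries (log2FC -1.17, standard error 0.30, adjusted p = 0.00825), on 8 to 31 counts per library. Sult1d1, whose BBR libraries all lay below its Con libraries, fell from 12.5 ± 1.10 to 9.13 ± 0.640 CPM (log2FC -0.45, standard error 0.10, adjusted p = 0.00328). Sult1a1 and Sult1e1 did not pass the test, at 3.47 ± 0.754 and 0.982 ± 0.480 CPM in BBR and with log2FC intervals of -0.41 to 0.34 and -1.18 to 0.10. Sult2a8, a hepatic bile acid sulfotransferase, rose from 6.37, 6.44 and 6.86 CPM in Con to 8.37, 7.72 and 8.39 CPM in BBR, without overlap (log2FC 0.32, standard error 0.11, adjusted p = 0.0402). Its call was lost in 8 of 13 alternative analyses, and its deposited FPKM was 4.93 ± 0.566 in Con and 5.33 ± 0.0950 in BBR. DESeq2 called 17 members lower and 0 higher in this comparison, so neither Sult2a8 nor Ugt2a3 was called there.

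The drug was also compared in OA-loaded cells. In BBROA vs ConOA, 2 of 45 tested members were lower and 0 higher in edgeR, against 2.63% lower and 1.95% higher of 12278 genes, so the members' share was near the background. The median log2FC of the members was -0.067, and 12 of 45 had an unadjusted p under 0.05. DESeq2 called 2 lower and 0 higher, edgeR without a filter on low counts called 6 lower, and edgeR with a replicate block called 9 lower and 1 higher. The background shares belong to the reported fit, and none is given for these settings or for the unadjusted p. Both genes called in the reported fit were sulfotransferases.

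Sult1e1, at 3.90, 4.004 and 4.90 CPM in ConOA, measured 2.43, 1.80 and 1.73 CPM in BBROA, a clear separation (log2FC -1.10, standard error 0.19, adjusted p = 0.00495). It ranked 25 of 12278 genes by fall. Sult1d1, at 36.1, 35.8 and 31.6 CPM in ConOA, measured 27.2, 28.1 and 26.4 CPM in BBROA, also without overlap (log2FC -0.34, standard error 0.069, adjusted p = 0.0124). Sult1a1 did not pass the test (log2FC -0.29, interval -0.51 to -0.066). The number of changed members was 6 without ConOA replicate 1, 3 without ConOA replicate 3, and 1 without ConOA replicate 2 or without BBROA replicate 3, where the call of Sult1d1 was lost. Sult1d1 was the 1 member lowered in both drug comparisons, which share no library (5.88% of 17 and 50% of 2). Here too the overlap over all genes was not computed.

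The drug effect with OA was then tested against the drug effect without OA in all 12 libraries. This interaction, the log2FC of BBROA vs ConOA minus that of BBR vs Con, was positive in 10 of 46 members and negative in 0 in edgeR, against 6.87% positive and 5.31% negative of 12742 genes. The median was 0.22 over the members and 0.012 over all genes. The 10 members were 5 Gst genes (Gstm1, Gstm3, Gstm4, Gstt1 and Gstz1) and 5 Ugt genes (Ugt1a6a, Ugt2b34, Ugt2b35, Ugt2b36 and Ugt2b5). DESeq2 called 8 positive and 0 negative, and 18 of 46 members had an unadjusted p under 0.05. The background shares above belong to the reported fit only. The count was 6 without Con replicate 2, ConOA replicate 2 or BBROA replicate 2, and 5 without BBROA replicate 3.

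The smallest adjusted p was that of Gstm4 (ENSMUSG00000027890, chromosome 3, 108040408 to 108044894, minus strand), with an interaction of 0.76 (standard error 0.12, adjusted p = 0.000473). It measured 15.6, 17.04 and 17.8 CPM in Con and 11.1, 10.2 and 11.5 CPM in BBR, but 10.9, 11.6 and 12.3 CPM in ConOA and 12.4, 12.2 and 13.9 CPM in BBROA. The Con libraries were the highest and the other 3 groups lay close to each other. Ugt2b35 followed at 0.70 (standard error 0.13, adjusted p = 0.00103), with 72.4, 77.8 and 89.8 CPM in ConOA and 61.6, 75.8 and 76.4 CPM in BBROA beside its Con and BBR values above. Ugt2b36 differed by 0.65 (standard error 0.12, adjusted p = 0.00135), Gstt1 by 0.58 (standard error 0.10, adjusted p = 0.00114) and Ugt2b5 by 0.57 (standard error 0.13, adjusted p = 0.00581).

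Set side by side, the log2FC of Ugt2b36 was -0.88 in BBR vs Con and -0.24 in BBROA vs ConOA (interval -0.40 to -0.085, adjusted p = 0.106). For Ugt2b5 the values were -0.84 and -0.28 (interval -0.47 to -0.10, adjusted p = 0.11). For Gstt1 they were -0.64 and -0.069 (interval -0.21 to 0.073). Ugt1a6a gave -0.54 and -0.095, Gstm3 -0.82 and -0.16, and Ugt2b34 -0.32 and 0.12. Gstz1, which isomerises maleylacetoacetate in tyrosine breakdown, and Gstm1 had the smallest of the called differences, 0.26 (adjusted p = 0.045) and 0.27 (adjusted p = 0.043). An exon of Gstz1 overlaps Pomt2, which measured 33.1 ± 2.51 CPM in Con, 29.9 ± 0.834 in ConOA, 31.1 ± 2.31 in BBR and 25.8 ± 2.67 in BBROA.

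**Figure D3:**
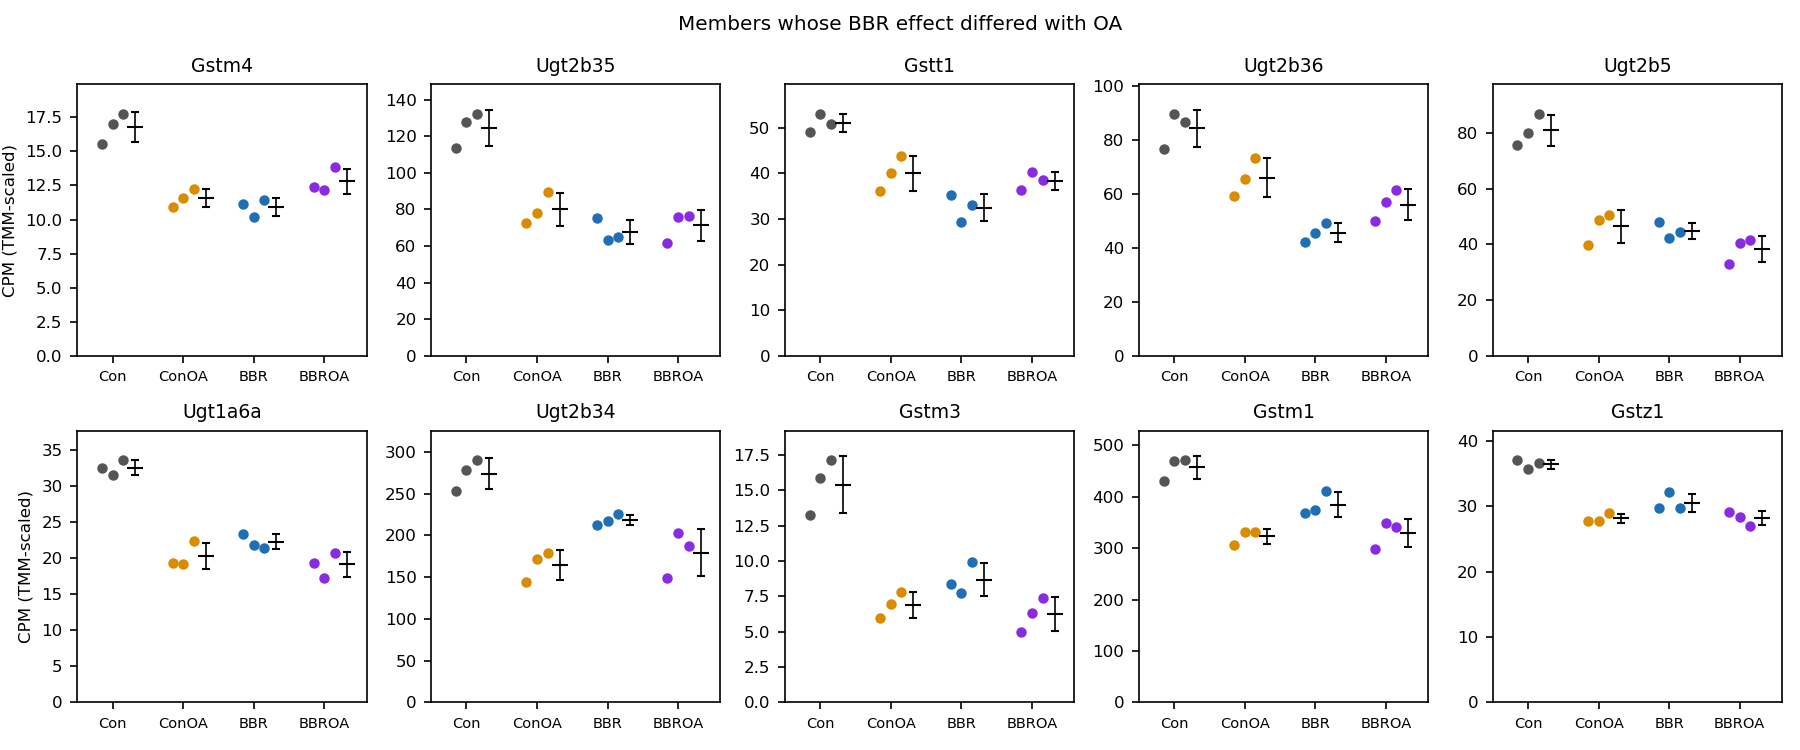
CPM (y axis, TMM-scaled, from 0) of the 10 members with a positive interaction in each library of the 4 groups (x axis), with points for libraries and black bars for the group mean ± SD over 3 libraries. The Con mean is the highest in all 10 panels, and the ConOA and BBROA libraries overlap in each.

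Subfamily totals were summed over all members of a subfamily, so they do not depend on how reads were split among its genes, and are given as a description without a test. The Ugt2b total was 619 ± 39.03 CPM in Con, 402 ± 36.6 in ConOA, 430.4 ± 6.95 in BBR and 391 ± 42.6 in BBROA, or 64.9%, 69.5% and 63.2% of Con. Ugt1a totals were 83.8%, 81.2% and 79.1% of the Con mean of 165 ± 4.99 CPM. The Gstt total was 70.5 ± 2.56 CPM in Con, and 76.1%, 69.6% and 75.6% of it in ConOA, BBR and BBROA. In these 3 subfamilies every Con library stood above those of the other groups, whose means lay close together.

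The Gstp total, of which Gstp1 made up 92.6%, was lowest in the groups with OA, at 1152 ± 64.9 CPM in Con, 854 ± 54.7 in ConOA, 1051 ± 36.1 in BBR and 817 ± 51.4 in BBROA. The Mgst total, 97.7% Mgst1, was likewise lower with OA, with 672 ± 47.7, 534 ± 52.8, 668 ± 9.30 and 568 ± 35.2 CPM in the same order. For Gstm the values were 602 ± 36.4, 422 ± 24.1, 513 ± 31.7 and 431 ± 36.8 CPM. The Gsta total overlapped between Con and ConOA and had its lowest mean, 63.5% of Con, in BBROA. Ugt3a, whose enzymes use sugars other than glucuronic acid, ranged from 89.5% of Con in ConOA to 109% in BBR. Of the 9 subfamilies plotted, Sult1 was the only one with a higher mean total in ConOA than in Con, and with Gstt the only one higher in BBROA than in BBR. It measured 21.9 ± 0.845 CPM in Con, 63.7 ± 3.88 in ConOA, 16.3 ± 1.48 in BBR and 50.04 ± 3.31 in BBROA, and its groups did not overlap in any of the 4 comparisons.

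**Figure D4:**
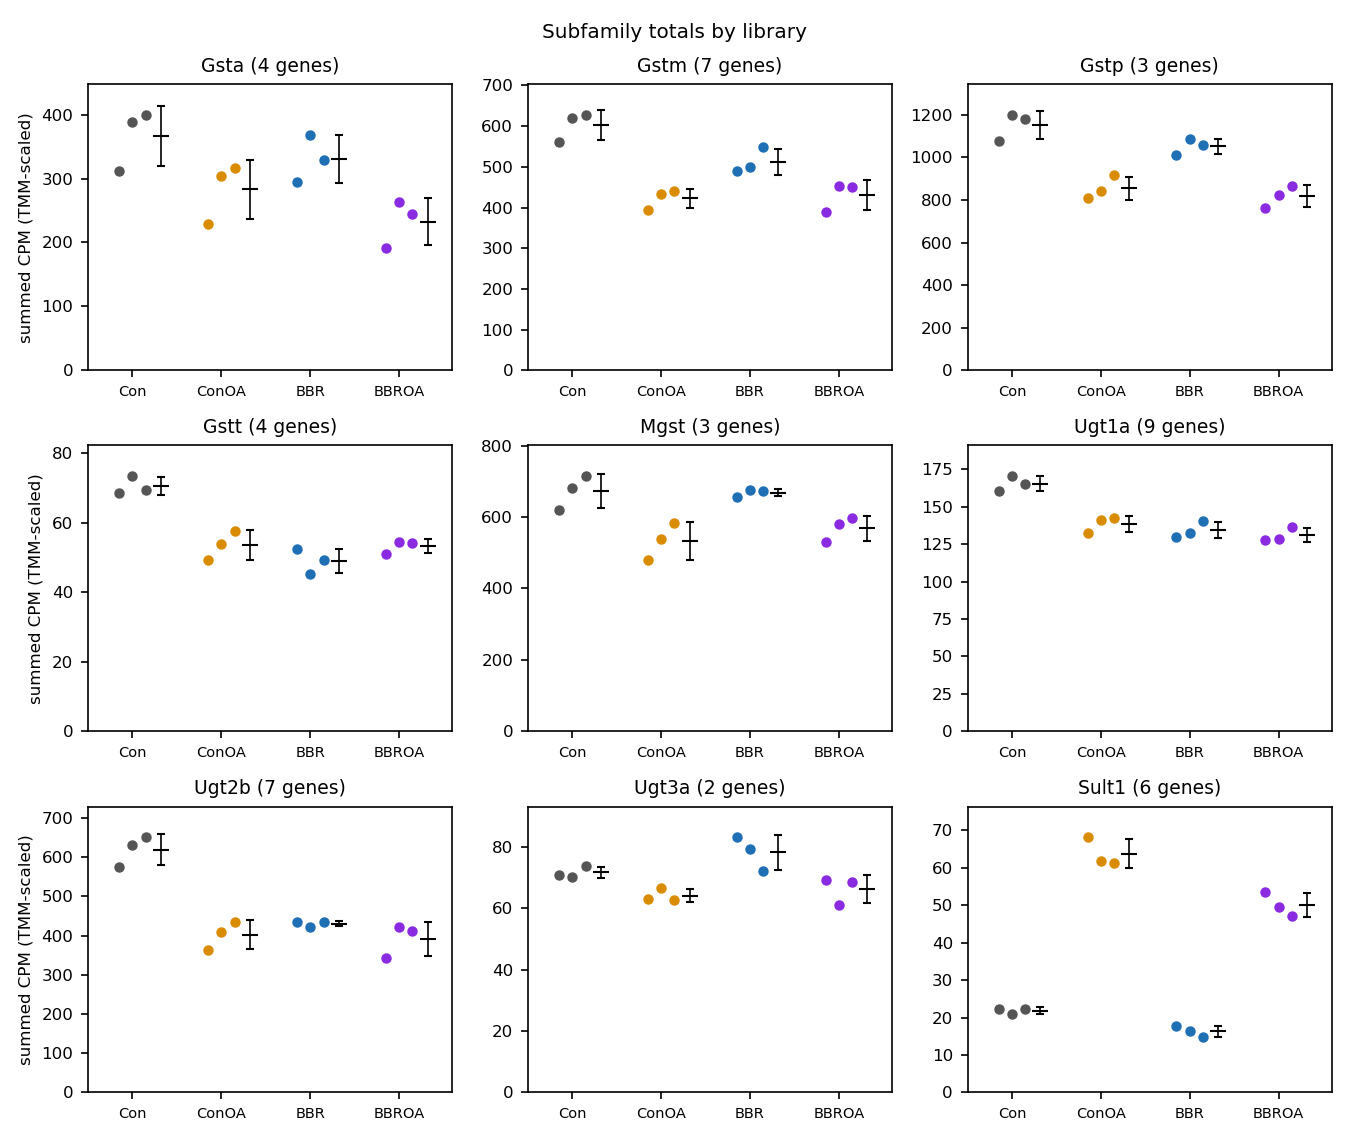
Summed CPM (y axis, TMM-scaled, from 0) of 9 subfamilies in each library of the 4 groups (x axis), with points for libraries and black bars for the group mean ± SD over 3 libraries. Sult1 is the panel in which every library with OA lies above every library without OA, and Ugt2b shows Con above 3 groups of similar height.

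Other genes of the conjugation system, 60 in all, were read alongside. In ConOA vs Con, 14 of 55 tested were higher and 21 lower, and in BBR vs Con 6 were higher and 20 lower, beside the background shares given above. BBROA vs BBR gave 17 higher and 16 lower, and BBROA vs ConOA 1 higher and 4 lower of 54. The interaction was positive in 17 and negative in 4 of 55.

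Of the genes that supply the donor molecules, Ugdh, which makes UDP-glucuronate, fell with OA from 487 ± 11.7 to 313 ± 18.05 CPM (log2FC -0.63, standard error 0.053, adjusted p = 4.05e-07) and in drug-treated cells from 513 ± 18.5 to 312 ± 22.1 CPM (log2FC -0.72, standard error 0.052, adjusted p = 1.13e-07). Slc35d1, which carries UDP-glucuronate into the endoplasmic reticulum, fell with the drug from 62.4 ± 2.08 to 44.4 ± 4.43 CPM (log2FC -0.48, standard error 0.065, adjusted p = 4.08e-05), with an interaction of 0.62 (adjusted p = 0.000163). The sulfate transporter gene Slc26a1 measured 83.1 ± 3.19 CPM in Con, 122 ± 2.10 in ConOA, 43.9 ± 3.94 in BBR and 102 ± 3.72 in BBROA. It rose with OA in both comparisons and fell with the drug in both, at log2FC -0.91 (adjusted p = 3.61e-08) and -0.27 (adjusted p = 0.00495).

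Gclc, the catalytic subunit of the rate-limiting enzyme of glutathione synthesis, was lower with the drug in both settings. It measured 455 ± 30.2 CPM in Con and 215 ± 28.2 in BBR (log2FC -1.07, standard error 0.075, adjusted p = 5.13e-08), and 374 ± 40.7 in ConOA and 243 ± 21.9 in BBROA (log2FC -0.63, standard error 0.075, adjusted p = 0.000234). Gss, which completes glutathione, fell with the drug from 129 ± 4.03 to 86.7 ± 6.15 CPM (adjusted p = 1.14e-06), and in OA its log2FC was -0.08 (adjusted p = 0.473). With OA Gss rose, by log2FC 0.23 in ConOA vs Con and 0.72 in BBROA vs BBR (adjusted p = 0.00353 and 1.78e-07). The cystine transporter gene Slc7a11 rose with the drug without OA (log2FC 0.38, adjusted p = 1.97e-05) and fell with it in OA (log2FC -0.25, adjusted p = 0.0258).

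Chac1, which breaks glutathione down, rose with OA from 21.1 ± 2.85 to 46.1 ± 3.63 CPM and, in drug-treated cells, from 22.99 ± 2.73 to 50.6 ± 3.23 CPM (adjusted p = 2.21e-07 and 6.27e-08). Oplah, the 5-oxoprolinase of glutathione turnover, fell with OA by log2FC -0.71 and -0.41. It was the 1 listed gene that rose with the drug in OA-loaded cells (log2FC 0.40, standard error 0.063, adjusted p = 0.00217). Ggct, also of glutathione turnover, rose with the drug from 8.75 ± 0.651 to 13.03 ± 2.68 CPM (adjusted p = 0.00324) and fell with OA in drug-treated cells to 5.01 ± 1.52 CPM (adjusted p = 4.81e-05). Ptges, a prostaglandin E synthase related to Mgst1, went from 11.6 ± 0.506 to 15.6 ± 2.67 CPM with the drug (adjusted p = 0.0087) and to 7.72 ± 2.33 CPM with both agents (adjusted p = 0.000321 against BBR).

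The conjugate exporter Abcc4 fell with OA from 29.8 ± 1.78 to 16.9 ± 1.75 CPM (adjusted p = 2.48e-06) and from 25.01 ± 1.26 to 14.1 ± 2.93 CPM in drug-treated cells (adjusted p = 4.81e-05). The transporter gene Abcc6 rose with OA by log2FC 0.52 and 0.74 (adjusted p = 0.000395 and 3.97e-05). Tpmt, a thiopurine methyltransferase, fell with the drug without OA (log2FC -0.53, standard error 0.11, adjusted p = 0.00133). With OA it rose, by log2FC 0.32 in ConOA vs Con and 0.66 in BBROA vs BBR (adjusted p = 0.0095 and 0.000179).

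Among regulators, Nr1i2, which encodes the pregnane X receptor, stood at 15.1 ± 0.437 CPM in Con and at 8.90 ± 0.740, 9.17 ± 0.345 and 9.002 ± 0.707 CPM in ConOA, BBR and BBROA, with an interaction of 0.73 (standard error 0.13, adjusted p = 0.000999). Onecut1, a hepatocyte transcription factor, stood at 5.77 ± 0.668 CPM in Con and 3.37 ± 0.146, 3.54 ± 0.735 and 3.66 ± 0.477 CPM in the others. Of the fatty acid receptors, Ppara rose with OA by log2FC 0.62 and 0.43 (adjusted p = 0.000871 and 0.0447), and Pparg fell with OA by log2FC -0.62 and -0.94 (adjusted p = 0.000129 and 1.53e-05).

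The members not tested were Gsto2, Gstt4, Mgst2, Sult1c1, Sult2a1 to Sult2a7, Sult2b1, Sult3a1, Sult3a2, Sult4a1, Sult6b1, Sult6b2, Ugt1a8, Ugt1a10, Ugt2a1 and Ugt2a2. The highest count among them in any library was 14, in Sult6b1. Of the 9 Sult2 genes, Sult2a8 was thus the only one measured at a testable level. Genes at 0 in all 12 libraries were Gstt4, Mgst2, Sult1c1, Sult2a1, Sult2a3 to Sult2a6, Sult3a1, Sult3a2 and Ugt2a1, for which expression was not detectable at this depth.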

How the data were processed

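For each library the authors deposited a table that lists an estimated count beside FPKM for every feature. Some deposited estimated counts are fractional (25 members), and all were rounded to whole numbers. Deposited FPKM, which is scaled by transcript length and depth, was used only to compare levels between genes and as an alternative for subfamily totals. The submitters' processing notes name mm10, and the aligner, counter and use of strand are not given in the sources used here. Groups and replicate numbers came from the sample titles.

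The 6 libraries of a comparison were tested with edgeR 4.0.16 (R 4.3.3), using filterByExpr (minimum count 10), TMM scaling, the two-sided quasi-likelihood F test and Benjamini-Hochberg adjustment over all genes tested, and called at an adjusted p under 0.05. The interaction used all 12 libraries with 4 group means. SE was derived from the F statistic, and 95% intervals from the SE by a normal approximation. These intervals are narrower than the F test implies. In BBROA vs ConOA, that of Ugt2b35 was -0.34 to -0.0057, while the F test gave an unadjusted p of 0.062. The procedure was tested on simulated counts. DESeq2 1.42.0, RLE and upper quartile scaling, other filters and thresholds, a single fit of all libraries, a replicate block and leaving out each library were alternatives, and leaving out libraries for subfamily totals was added after seeing the data. Sharing between genes was measured as the percentage of 50-base words of a gene's GENCODE transcripts found in another gene. The 12 pairs of libraries within groups differed by more than sampling noise, so none was counted as a duplicate.

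The members, pathway genes, marker lists and tests were chosen with earlier results of these data known. Named members were those with an adjusted p under 0.05 in a comparison (up to the 8 largest changes per direction), the 4 most abundant by FPKM per class, and up to 10 with the smallest interaction p. Named pathway genes changed at least 1.5-fold with an adjusted p under 0.05 in at least 1 comparison, and some of them, with a motif searched in the promoters, are not reported here. Ugt2b1, Sult1b1, Sult5a1, Sgf29, Pomt2 and the single marker genes fall outside this rule and were chosen after their values were seen.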

Additional observations from a re-analysis of the deposited data

Results flagged for a closer look

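The effect of BBR differed between cells with and without OA in 10 members by the interaction test in edgeR over all 12 libraries. Given as the log2 fold change with OA minus that without OA, the differences were 0.76 for Gstm4, 0.70 for Ugt2b35, 0.67 for Gstm3, 0.65 for Ugt2b36, 0.58 for Gstt1, 0.57 for Ugt2b5, 0.45 for Ugt1a6a, 0.45 for Ugt2b34, 0.27 for Gstm1 and 0.26 for Gstz1. All were positive, and the background was 6.87% positive and 5.31% negative of 12742 genes. The calls of Gstm1, Gstm3, Gstz1 and Ugt2b34 were lost under 8 to 14 of 18 alternatives each, that of Ugt1a6a under 1 (without BBROA replicate 3, adjusted p = 0.0505), and those of Gstm4, Gstt1, Ugt2b35, Ugt2b36 and Ugt2b5 held under all 18.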

How the results depend on the processing

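Of 86 called member values, 63 kept their call under every alternative of scaling, filter, tool, fit or libraries at the same threshold, 23 lost it under at least 1, and none reversed. Thresholds that add a fold change were counted apart. Shares over all genes are given for the reported fit only, so the counts below have no background beside them. The number of changed members at an unadjusted p under 0.05 with a 2-fold change was 2 for BBR vs Con, 1 for BBROA vs ConOA, 6 for ConOA vs Con, 2 for BBROA vs BBR and 3 for the interaction (Sult1c2, Ugt1a2 and Ugt1a7c, 0 of them among the 10 reported), and at an adjusted p under 0.05 with a 1.5-fold change it was 10, 1, 16, 5 and 4. For BBROA vs ConOA, 2 in the reported fit, it was 6 without a filter on low counts and 10 with the replicate number as a block. With that block the other comparisons gave 24 for BBR vs Con, 35 for ConOA vs Con, 24 for BBROA vs BBR and 12 for the interaction. Leaving out 1 library at a time gave 1 to 6 members for BBROA vs ConOA (6 without ConOA replicate 1, 1 without ConOA replicate 2 or BBROA replicate 3) and 5 to 12 for the interaction (5 without BBROA replicate 3). Whether samples with the same replicate number belong together is not given in the sources used here. Their deviations from the group means correlated at 0.023 to 0.155, not over 0.1 in every pair. Replicate 1 had the lowest Gst and Mgst total in all 4 groups (2747 CPM in Con, 2056 in ConOA, 2603 in BBR, 2018 in BBROA). These values do not settle whether replicate numbers pair cultures. The log2 ratio of the Sult1 total in ConOA to Con was 1.54 with CPM and 1.64 with deposited FPKM, and the cause was not tested. Depth limited Gstm7, Sult1b1, Sult1c2, Sult1e1, Sult5a1, Ugt1a2, Ugt1a7c and Ugt2b37, the tested members with under 100 counts in every library.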
